A study of Mus musculus with 71 samples.

Results

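Hippocampal gene expression after skin excision was compared with that after a sham procedure. The members are the hippocampus libraries whose treatment label is excision (n = 10) or sham (n = 9), 19 of the 71 libraries of the study. All mice were C57BL/6J and carried no other stated allele. Every animal, sham included, was anaesthetised with inhaled isoflurane, received buprenorphine at 0.1 mg/kg under the skin and was shaved at the site. In the excision group the site, on the back, was cleaned with 4% chlorhexidine, scored with a 12 mm punch and cut away through the full thickness of the skin. Sham mice were shaved at the same place and left uninjured, and the labels do not mention chlorhexidine for them. For 5 days after injury the drinking water contained paracetamol at 1 mg/mL. The labels do not say separately whether sham mice drank it. The sources used here give no age, sex or time from surgery to tissue collection. Excision came as 5 libraries in batch 1 and 5 in batch 2, and sham as 4 and 5. A further 10 hippocampus libraries from burned mice, 29 in all, entered the fits to estimate the spread and are otherwise shown only where a level is put beside them.

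The hippocampus forms new memories through a loop of granule cells in the dentate gyrus and pyramidal cells in the CA fields. Its neurons switch on immediate early genes, a class of fast and short-lived transcripts encoding mostly transcription factors, within minutes of strong activity. Its capillaries are lined by endothelial cells whose tight junctions and transporters form the blood-brain barrier, and those cells meet signals from the circulation, such as those released by a wound, before other brain cells do. Excision is the surgical control that removes skin without heat. Its comparison with sham asks what the skin injury and the care given with it add to anaesthesia, buprenorphine and shaving. That care includes chlorhexidine, which the labels do not mention for sham, and paracetamol, which they do not settle for sham.

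The libraries held total RNA read as single-end runs of 100 bp. Total counts were 6.65 to 34.1 M (mega) in excision and 7.34 to 32.3 M in sham libraries of batch 1, and 37.0 to 70.8 M and 30.7 to 39.5 M in batch 2. Dissection was checked on defining markers in CPM, counts scaled to a common library total. C1ql2, which encodes a secreted synaptic protein of dentate granule cells, had a median of 123 in excision and 132 in sham libraries against 0.887 in the frontal cortex. Fibcd1, a CA1 pyramidal marker, had medians of 175 and 178 against 20.6 in the frontal cortex. Prox1, Grik4, Bok, Zbtb20 and Neurod6 also had higher medians in the hippocampus. Wfs1, listed for CA1, differed little, with medians of 165.5 and 151.6 against 146.1. Of the cortex markers, Cux2 and Rorb had lower medians in the hippocampus, while Scnn1a was higher there (11.52 and 9.93 against 2.647). Most markers thus matched the label hippocampus, and Wfs1 and Scnn1a did not separate the regions in that way. Transthyretin (Ttr), the abundant carrier protein of the choroid plexus, ranged from 9.40 to 2994 in excision and from 22.9 to 5049 in sham libraries, so the amount of that neighbouring tissue varied widely in both groups. Sham replicate 3 of batch 1 stood apart by its blood transcripts: haemoglobin genes made up 0.261% of its counts, against 0.0111 to 0.0400% in the other sham libraries of that batch. Over 5 library measures, exact within-batch permutation tests gave two-sided p = 0.434 for total count, 0.324 for the mitochondrially encoded share, 0.548 for haemoglobin, 0.493 for the share in unproven TEC gene models and 0.808 for choroid plexus genes, with Benjamini-Hochberg values of 0.685 for all but the last, at 0.808. Nothing in the labels ties these libraries to separate animals beyond their being separate samples, so p-values measure the spread between these samples.

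No gene was called different between excision and sham. Of 19574 genes tested, 0 (0%) passed an adjusted p of 0.05 in edgeR's quasi-likelihood test with Benjamini-Hochberg adjustment, and 0 did so with the DESeq2 Wald test. At an unadjusted p under 0.05 there were 727 genes (3.71%) with edgeR and 826 (4.22%) with DESeq2, while 979 would be reached at that level if no gene differed. Of the 727, 390 (1.99% of genes tested) were higher and 337 (1.72%) lower in excision, and the smallest adjusted p was 0.852. No gene had all 10 excision libraries above, or all below, the 9 sham libraries. The precision was enough to limit most differences taken over both batches. The 95% interval lay within 1.5-fold either way for 80.6% of genes and within 2-fold for 95.9%. Among the 16052 genes with a mean of at least 1 CPM these shares were 92.8% and 98.9%. Among the 3522 genes below that mean they were 25.1% and 82.7%. CPM are here and below scaled to the library total after TMM normalisation. These intervals do not limit differences within 1 batch. For Egr4 the log2 interval was -0.42 to 0.26, while the estimates were 0.65 in batch 1 and -0.76 in batch 2. Values below for single genes and gene lists are therefore descriptions of estimates, and log2 fold changes are excision minus sham with batch in the fit. The median over all genes tested was -0.00, and 48.6% of genes lay above 0. In bulk tissue, more cells of a type and more RNA per cell cannot be told apart.

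The 12 named genes with the smallest p among those higher in excision were Xdh, Adgrl4, Pecam1, Hhex, Sema3g, Xk, Ptprb, Sp8, Clic5, Plekha1, Scgn and Piga. Pecam1 belongs to the endothelial and barrier list, and Adgrl4, Hhex and Sema3g to the list of vessel growth and arterial genes. Xdh, ranked first, encodes xanthine dehydrogenase, which carries out the last steps of purine breakdown to uric acid, and lies on the minus strand at chr17:73883895-73950196 (GRCm38). Its level ran from 2.19 through a median of 4.17 to 5.59 CPM in excision and from 1.76 through 2.54 to 3.28 CPM in sham. All 5 excision libraries of batch 2 (3.14 to 5.59 CPM) lay above all 5 sham libraries (1.97 to 3.11 CPM), a separation that 0.353% of all genes showed, whereas the groups overlapped in batch 1. Its mean was 3.97 ± 1.14 CPM (SD, n = 10) in excision and 2.52 ± 0.529 CPM (SD, n = 9) in sham. The log2 fold change was 0.64 with an SE of 0.16 and a 95% interval of 0.32 to 0.97, and the edgeR unadjusted p of 0.000325 became 0.852 after adjustment.

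Adgrl4, an adhesion receptor of endothelial cells, ranked second. Excision libraries ran from 3.15 through 5.67 to 8.62 CPM and sham libraries from 2.58 through 3.97 to 4.79 CPM. The upper part of the excision group lay above every sham library, and the lower part overlapped them. Its log2 fold change was 0.55 (SE 0.15), with 0.58 in batch 1 and 0.52 in batch 2. Pecam1, the junction molecule that defines endothelium, ranged from 5.41 through 7.45 to 9.22 CPM in excision and from 4.29 through 4.74 to 8.03 CPM in sham. The sham median was below every excision library while the highest sham library lay among the excision libraries, and the log2 fold change was 0.45 (SE 0.13). Ptprb, the endothelial receptor phosphatase that restrains Tek signalling, averaged 10.8 ± 2.49 CPM in excision and 7.27 ± 2.54 CPM in sham, and its estimate was 0.56 (SE 0.17). For Sema3g, a semaphorin of arterial endothelium, the means were 3.39 ± 0.773 and 2.37 ± 0.485 CPM and the estimate 0.53 (SE 0.15). Its excision libraries of batch 2 (2.90 to 4.51 CPM) also lay above the sham libraries (1.75 to 2.78 CPM), with overlap in batch 1. The homeobox factor Hhex, which acts in endothelial and blood development, averaged 1.44 ± 0.392 against 0.960 ± 0.279 CPM, a log2 fold change of 0.50 (SE 0.14). Of the others, Xk, a membrane protein that carries the Kell complex of red cells, averaged 17.4 ± 1.99 against 14.5 ± 3.28 CPM (0.28), and Clic5, a chloride channel family member, 2.78 ± 0.657 against 2.01 ± 0.429 CPM (0.44). Plekha1, a phosphoinositide-binding adaptor, averaged 64.5 ± 7.10 against 55.1 ± 6.60 CPM (0.23), and Piga, which starts the synthesis of GPI anchors, 6.07 ± 0.810 against 4.77 ± 0.826 CPM (0.34). None of the 12 passed adjustment (adjusted p = 0.852, edgeR), and the same sign in both batches was a condition of their choice.

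**Figure D1:**
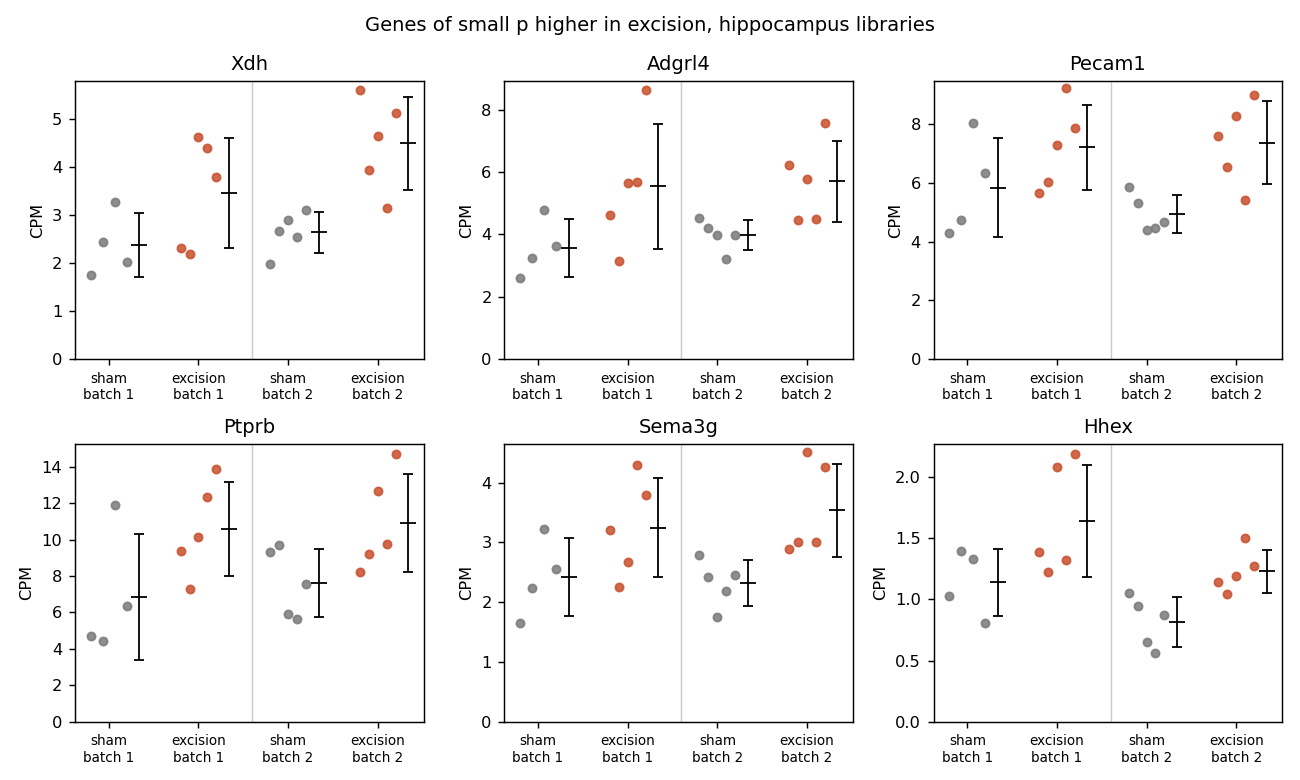
Level in CPM (y axis) of Xdh, Adgrl4, Pecam1, Ptprb, Sema3g and Hhex in each excision and sham library, by batch (x axis). Points are libraries, the bar is the group mean and the error bar the SD. In batch 2 the excision points of Xdh (3.14 to 5.59) and Sema3g (2.90 to 4.51) sit above those of sham (1.97 to 3.11 and 1.75 to 2.78), and in batch 1 the groups overlap in all 6 panels.

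A list of 20 endothelial and blood-brain barrier genes had 19 members above 0, with a median log2 fold change of 0.24 against -0.00 over all genes tested. Of the 20, 7 were higher and 0 lower at an unadjusted p under 0.05, and 0 were called. The list was drawn up with earlier results of these data known, so its direction is no independent evidence. Without Pecam1, which those results had already shown, 18 of 19 members were above 0, 6 had an unadjusted p under 0.05 and the median was 0.20. The median was 0.14 in batch 1 and 0.31 in batch 2, and 16 of the 20 were above 0 in both, a pattern that 27.8% of all genes tested showed. Leaving out 1 library gave medians of 0.20 to 0.36, the highest without sham replicate 4 of batch 1.

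Among the transcription factors, receptors and junction proteins of this list, Erg, an ETS factor that maintains endothelial identity, averaged 1.33 ± 0.484 CPM in excision and 0.888 ± 0.216 CPM in sham (log2 fold change 0.58, SE 0.21). Cdh5, the cadherin of endothelial junctions, had 5.25 ± 1.21 and 3.82 ± 1.32 CPM (0.43, SE 0.18). Flt1, a receptor for vascular endothelial growth factor, had 15.9 ± 3.51 and 12.4 ± 3.71 CPM (0.35). The groups overlapped for all 3. Among the transporters, Slc2a1, which carries glucose across the barrier, averaged 59.9 ± 7.39 and 53.0 ± 5.10 CPM (0.18), and the amino acid carrier Slc7a5 averaged 59.5 ± 4.34 and 54.3 ± 2.29 CPM (0.14). Ly6c1, a surface marker of brain endothelium, had a log2 fold change of 0.33. The tight junction protein Cldn5 had 0.28, with an interval of -0.04 to 0.59 that includes 0. The lipid transporter Mfsd2a (0.05) and the growth factor receptor Kdr (0.11) lay near 0, and Bsg, a chaperone of monocarboxylate carriers also made by other cells, was the only member below 0 (-0.06).

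Genes of vessel growth and arterial identity were described next. Of the 19 members of that list past the count filter, 16 were above 0, 6 had an unadjusted p under 0.05, all higher, and the median was 0.14. That median came from batch 2: it was 0.01 in batch 1 and 0.26 in batch 2. With each batch fitted alone, 10 members were above 0 and 9 below in batch 1, against 17 and 2 in batch 2. Adgrl4, Hhex, Sema3g and Sox18 had been placed in it with earlier results known; of the remaining 15, 12 were above 0, 2 had an unadjusted p under 0.05 and the median was 0.11. Notch4, the endothelial Notch receptor, averaged 5.83 ± 0.809 CPM in excision and 4.64 ± 0.905 CPM in sham (0.30), and Nos3, the endothelial nitric oxide synthase, had 0.36. The angiogenic ligand Vegfa had 0.03, the tip cell ligand Dll4 -0.34, Egfl7 -0.15 and the marker of leaky vessels Plvap -0.06, none at an unadjusted p under 0.05. Pericyte and smooth muscle genes, which mark the other cells of the vessel wall, had 6 of 14 members above 0, a median of -0.05 and 0 at an unadjusted p under 0.05. Their summed level ran from 119 to 171 CPM in excision and from 126 to 182 CPM in sham, so the groups overlapped almost completely. Leukocyte adhesion genes, several of them made by activated endothelium, had 7 of 9 members above 0 and a median of 0.05.

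The same genes were examined in the frontal cortex, where 10 excision and 8 sham libraries were read. There the 20 endothelial and barrier genes had a median log2 fold change of -0.25, below 0 where the hippocampus lay above. Other lists were also low there: the astrocyte median was -0.26 (0.02 in the hippocampus, 4 of 15 members with an unadjusted p under 0.05 for the difference between regions), that of thalamus and septum genes -0.22 and that of interferon genes -0.22, against 0.01 over all genes. Their part in the endothelial difference was not tested. Pecam1 had -0.26 in the frontal cortex against 0.45 in the hippocampus, Adgrl4 -0.33 against 0.55, Xdh -0.18 against 0.64 and Ptprb -0.21 against 0.56. The difference between regions was tested as an interaction in edgeR: of 21610 genes, 0 (0%) were called, 1524 (7.05%) had an unadjusted p under 0.05, and with DESeq2 these counts were 0 and 1580 (7.31%). Of the 20 members, 7 had an unadjusted p under 0.05 for that difference, among them Pecam1 (0.00470), with an adjusted p of 0.676. Pecam1, Adgrl4, Xdh and Ptprb are among the genes of smallest p higher in the hippocampus. The same hippocampus libraries enter the region difference, so it is no independent evidence for these genes. In the frontal cortex itself 0 genes were called between excision and sham (0%) and 1681 (7.78%) had an unadjusted p under 0.05. Labels of some frontal cortex libraries disagree between title and treatment field, and the interaction called 0 genes without them as well. The sources used here do not say whether the regions came from the same mice.

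**Figure D2:**
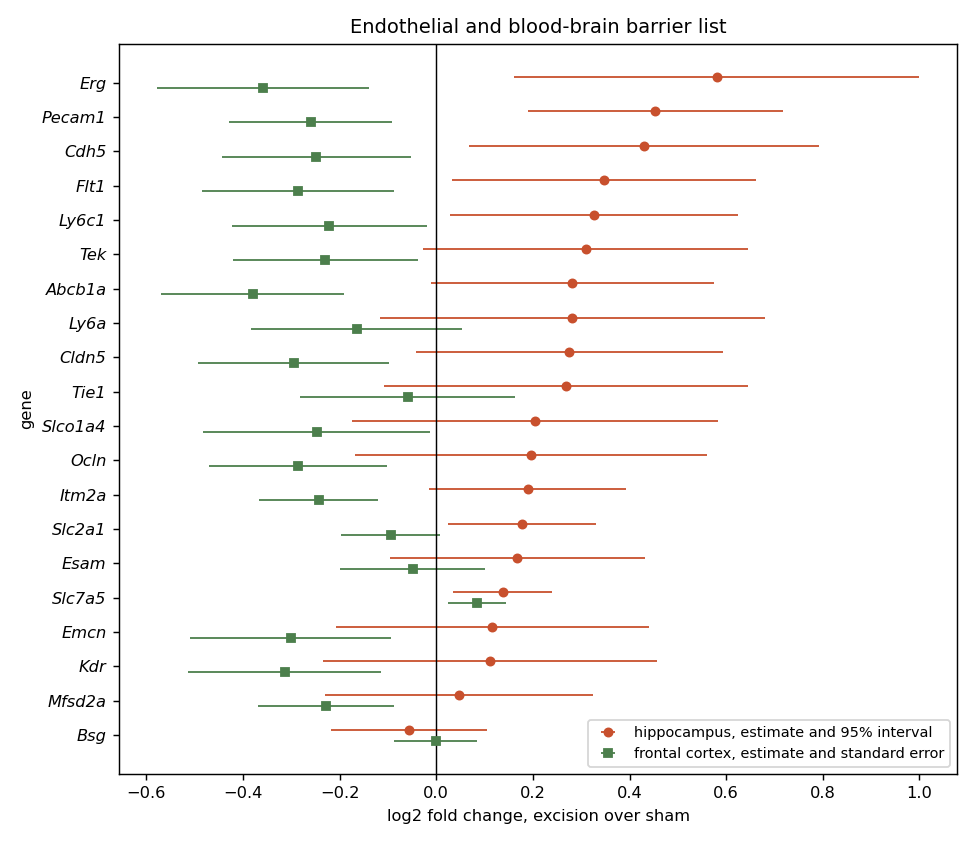
Log2 fold change of excision against sham (x axis) for the 20 endothelial and barrier genes (y axis) in the hippocampus, with 95% interval, and in the frontal cortex, with SE. Nearly all hippocampus points lie above 0 (19 of 20) and most frontal cortex points below it (median -0.25).

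Immediate early genes differed in opposite directions in the 2 batches. A test of the interaction of batch and excision called 7 of 19574 genes (0.0358%) in edgeR, and 1007 (5.14%) had an unadjusted p under 0.05. DESeq2 called 20 (0.102%), with 1056 (5.39%) at that unadjusted level. The 7 were Egr4, Junb, Dusp6, Ccdc117, Fosb, Egr2 and Gadd45b, and they are named because they were called, after their values had been seen. Egr4 and Egr2 are zinc finger transcription factors and Junb and Fosb are parts of the AP-1 factor. Dusp6 is a phosphatase that switches off ERK kinases, and Gadd45b is an activity-induced gene linked to DNA demethylation. Of these, Egr4, Junb, Fosb and Egr2 belong to the list of 20 immediate early genes. Many genes of this class respond to the activity-regulated factor CREB, which binds the sequence TGACG and its palindrome TGACGTCA. The 250 bases before the start site of Egr4, Junb, Fosb and Fos (RefSeq, GRCm38.p6) are shown to let the reader see that element, with TGACG or its reverse complement CGTCA in capitals and each line written 5′ to 3′ along the gene's own strand. They lie at chr6:85513590-85513839 on the minus strand for Egr4, chr8:84978749-84978998 on the minus strand for Junb, chr7:19310046-19310295 on the minus strand for Fosb and chr12:85473640-85473889 on the plus strand for Fos.
Egr4: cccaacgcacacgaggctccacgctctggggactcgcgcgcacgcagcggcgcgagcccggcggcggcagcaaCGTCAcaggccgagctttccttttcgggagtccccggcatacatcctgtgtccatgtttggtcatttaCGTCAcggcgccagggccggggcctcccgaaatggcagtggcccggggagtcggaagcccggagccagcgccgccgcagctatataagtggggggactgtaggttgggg
Junb: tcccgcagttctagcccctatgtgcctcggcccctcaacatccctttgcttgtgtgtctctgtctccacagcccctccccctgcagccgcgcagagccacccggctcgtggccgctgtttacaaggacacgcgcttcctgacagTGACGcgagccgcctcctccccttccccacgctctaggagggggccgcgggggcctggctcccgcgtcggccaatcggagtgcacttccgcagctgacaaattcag
Fosb: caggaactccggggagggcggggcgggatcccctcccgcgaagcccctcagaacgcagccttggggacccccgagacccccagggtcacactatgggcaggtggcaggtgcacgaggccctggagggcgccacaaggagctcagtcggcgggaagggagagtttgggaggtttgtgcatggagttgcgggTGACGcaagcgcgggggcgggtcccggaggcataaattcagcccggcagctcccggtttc
Fos: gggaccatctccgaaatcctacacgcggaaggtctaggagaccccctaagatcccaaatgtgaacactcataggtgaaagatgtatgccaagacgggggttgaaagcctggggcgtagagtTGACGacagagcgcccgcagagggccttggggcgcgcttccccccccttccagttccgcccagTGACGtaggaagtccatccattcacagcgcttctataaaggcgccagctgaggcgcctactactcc

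The matches lay 177 and 109 bases before the start in Egr4, 106 in Junb, 60 in Fosb, and 129 and 66 in Fos. Searched on both strands, TGACG occurred in 12 of the 16 immediate early genes with a window in the RefSeq table (75.0%), in 4 of the 6 called genes with one (66.7%) and in 3573 of 12646 genes tested (28.3%). TGACGTCA, which contains TGACG, occurred in 2 of the 16 (Btg2 and Dusp1) and in 2.83% of all tested genes with a window. The CArG box, bound by serum response factor, occurred in 1 of the 16 (Egr2) and in 1.47% of all. A match is a description of the letters and not evidence of binding.

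Egr4 gave the clearest reversal. In batch 1 the excision libraries had 43.0, 65.5, 72.2, 44.9 and 60.8 CPM and the sham libraries 40.2, 30.6, 39.7 and 33.8 CPM. In batch 2 the excision libraries had 25.66, 25.90, 32.02, 25.04 and 23.22 CPM and the sham libraries 50.1, 40.1, 51.6, 38.4 and 43.0 CPM. Every excision library lay above every sham library in batch 1 and below every sham library in batch 2. The log2 fold change was 0.65 (SE 0.14) in batch 1 and -0.76 (SE 0.12) in batch 2, a difference of -1.41 (SE 0.18) with an adjusted p of 0.000528 in edgeR. Over both batches it was -0.08, so the pooled value hid the pattern.

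Junb showed the same order. Its excision libraries ran from 84.0 to 119 CPM in batch 1, above sham at 62.4 to 78.3 CPM, and from 45.3 to 68.3 CPM in batch 2, below sham at 82.9 to 120 CPM. The groups were again fully separate within each batch, and the log2 fold changes of 0.54 and -0.69 differed by -1.23 (SE 0.19, edgeR adjusted p = 0.00539). Fosb ran from 17.7 to 26.5 CPM in excision and 14.2 to 15.95 CPM in sham in batch 1, and from 13.3 to 21.1 CPM and 22.4 to 31.5 CPM in batch 2, again with no overlap. Its difference between batches was -1.16 (SE 0.21, adjusted p = 0.0193). Egr2 ran from 4.25 to 8.19 CPM in excision and 1.76 to 4.19 CPM in sham in batch 1, and from 1.56 to 2.60 CPM and 4.65 to 6.70 CPM in batch 2. Its difference of -2.51 (SE 0.45, adjusted p = 0.0193) had the largest size of the 7.

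Dusp6 had 53.5 to 63.0 CPM in excision against 36.1 to 46.7 CPM in sham in batch 1, and 35.6 to 44.0 CPM against 45.9 to 56.1 CPM in batch 2. Those ranges did not overlap, and the difference between batches was -0.81 (SE 0.13, adjusted p = 0.00539). Gadd45b had 16.3 to 20.3 against 14.5 to 15.6 CPM in batch 1 and 9.51 to 12.9 against 15.2 to 21.8 CPM in batch 2, a difference of -0.89 (SE 0.16, adjusted p = 0.0246). Ccdc117 had 18.3 to 21.2 against 13.4 to 14.9 CPM in batch 1, but its groups overlapped in batch 2, and its difference was -0.73 (SE 0.13, adjusted p = 0.0160). Egr4, Junb and Dusp6 stayed called in all 19 fits that left out 1 library each, whereas Ccdc117 was lost in 2 of them, Fosb and Egr2 in 6 each and Gadd45b in 11. Fos, the classical activity marker, had log2 fold changes of 0.780 and -1.001 but an edgeR adjusted p of 0.129 for their difference. It was among the 20 genes called by DESeq2, and edgeR called it without sham replicate 4 of batch 1.

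**Figure D3:**
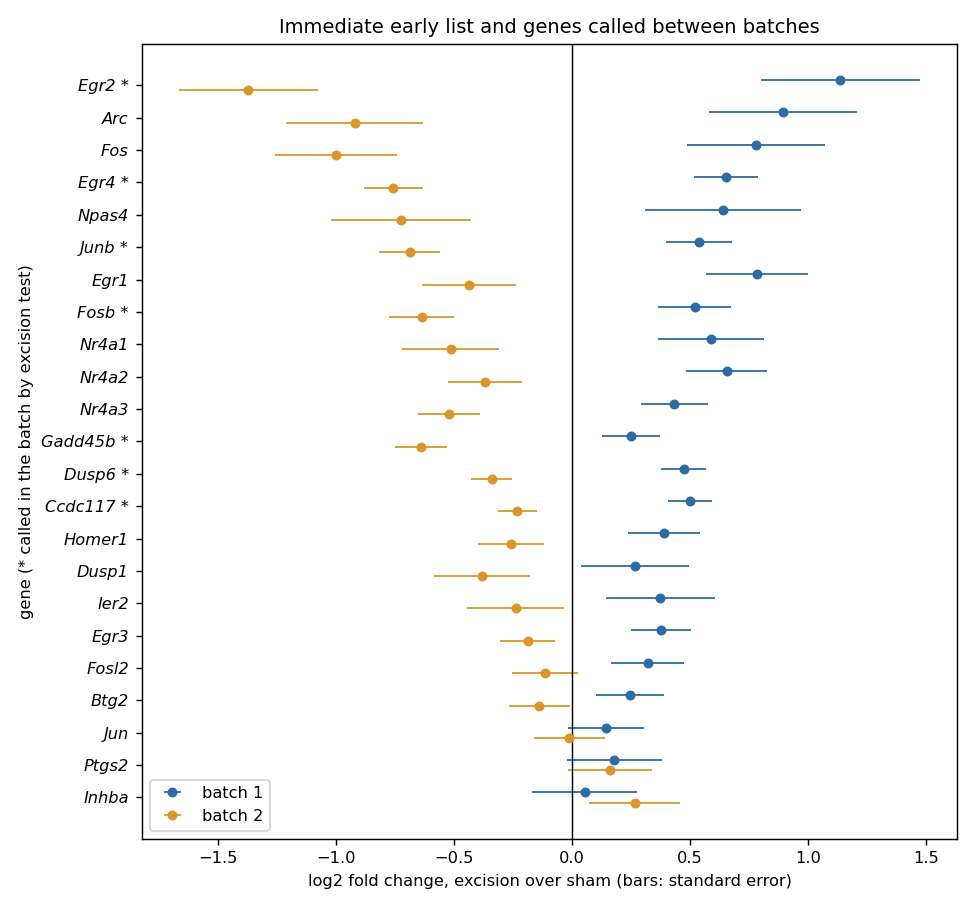
Log2 fold change of excision against sham in batch 1 and in batch 2 (x axis) for the 20 immediate early genes and the 3 other genes called in the batch interaction (y axis), with SE, and an asterisk where the difference was called. Egr4 lies at 0.65 in batch 1 and -0.76 in batch 2, and most genes lie above 0 in batch 1 and below 0 in batch 2.

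Most of the remaining immediate early genes followed the same order, and 2 of the 20 list members, Inhba and Ptgs2, were above 0 in both batches. With batch 1 fitted alone, 20 of the 20 list members were above 0, with a median of 0.47, 16 had an unadjusted p under 0.05 (2.02% of all genes were higher at that level), and in 9 no excision library overlapped the sham range, being higher in all (0.718% of all genes). With batch 2 fitted alone, 18 were below 0, with a median of -0.42, 11 had an unadjusted p under 0.05 (3.47% of all genes were lower), 5 did not overlap (0.574%) and 1, Egr4, was called (0.00502% of genes; log2 fold change -0.77, SE 0.11, adjusted p = 0.0415, edgeR). Over both batches 11 of the 20 were above 0 and the median was 0.01. The list holds Egr4, Junb, Fosb and Egr2, called from the same libraries, and was drawn up with earlier results of these data known. Its counts by batch are therefore no independent evidence of a reversal. The synaptic regulator Arc had 0.89 and -0.92 in the 2 batches, Npas4, a factor induced by neuronal calcium entry, 0.64 and -0.73, and Egr1 0.78 and -0.44. Inhba had 0.05 and 0.26, Ptgs2 0.18 and 0.16, and Jun 0.14 and -0.01.

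The summed level of the list gave the same split by library. Batch 1 excision libraries held 1177, 1403, 1778, 1277 and 1399 CPM and sham libraries 969.8, 768.2, 1116 and 968.2 CPM. Batch 2 excision libraries held 1017, 992.1, 1120, 866.8 and 908.3 CPM and sham libraries 1453, 1375, 1225, 1160 and 1397 CPM. The groups did not overlap in either batch, with excision the higher group in batch 1 and sham in batch 2. Burn libraries held 926 to 1161 CPM in batch 1 and 833.3 to 1200 CPM in batch 2. In the frontal cortex, over both batches, Egr4 had a log2 fold change of 0.05, Junb 0.01 and Fosb -0.12. The hippocampus values over both batches were also near 0, at -0.08, -0.10 and -0.14. Pooled values therefore cannot show whether the frontal cortex reversed between batches, which was not tested. Library numbers ran 1 to 5 for excision, 6 to 10 for sham (4 of these) and 11 to 15 for burn in batch 1, and 1 to 5 for burn, 6 to 10 for excision and 11 to 15 for sham in batch 2. Excision numbers thus preceded sham numbers in both batches. The numbers 1 to 5 held 1177 to 1778 CPM in batch 1 and 833.3 to 1200 CPM in batch 2. Those from 6 to 10 held 768.2 to 1116 and 866.8 to 1120 CPM. Those from 11 to 15 held 926 to 1161 and 1160 to 1453 CPM. The sources used here do not say what these numbers stand for, and within a batch number block and treatment cannot be told apart.

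**Figure D4:**
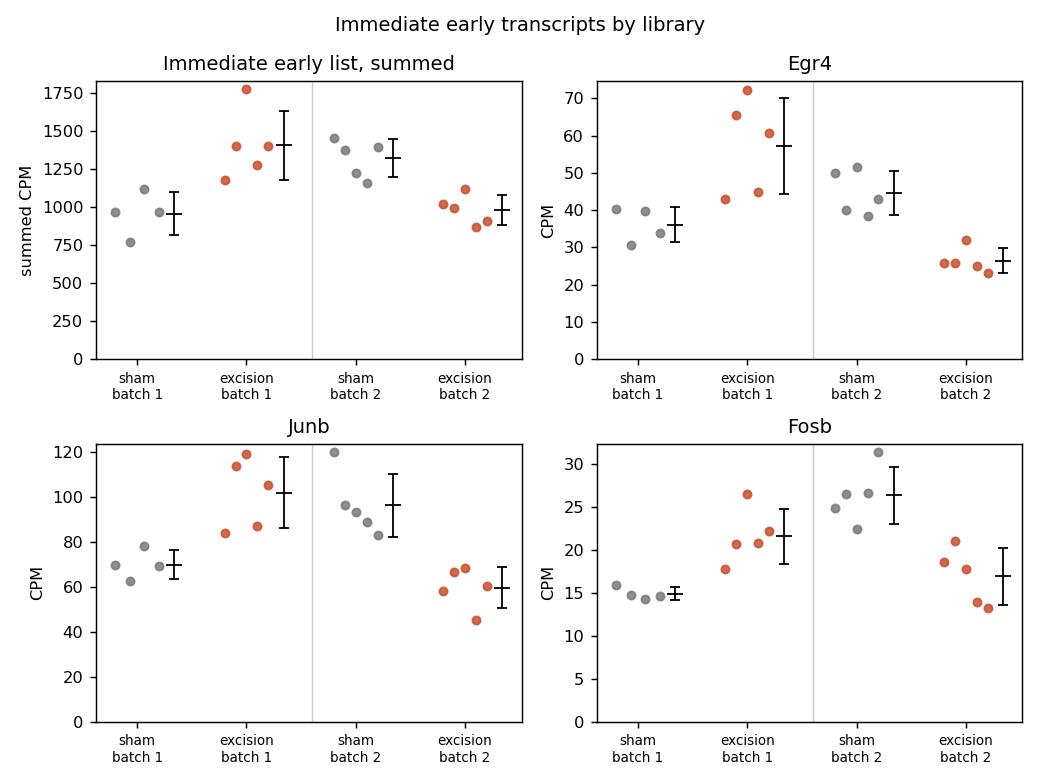
Summed CPM of the 20 immediate early genes, and CPM of Egr4, Junb and Fosb (y axes), in each excision and sham library by batch (x axis), with group mean and SD. Excision sits above sham in batch 1 and below it in batch 2, for Egr4 at 43.0 to 72.2 against 30.6 to 40.2 and then at 23.2 to 32.0 against 38.4 to 51.6.

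Some of the largest fold changes rested on 1 or 2 libraries. Sp8, a zinc finger factor of interneuron precursors bound for the olfactory bulb, had 16.5 CPM in excision replicate 5 and 5.15 CPM in replicate 4 of batch 2, and at most 1.61 CPM elsewhere in the 19 libraries. Its log2 fold change of 1.65 (SE 0.50) became 0.74 without replicate 5. The calcium-binding protein Scgn had 8.67 and 4.85 CPM in the same libraries and at most 1.67 CPM elsewhere, with 1.22 over all libraries and 0.72 without replicate 5. Eomes, a factor of intermediate neuronal progenitors and of some glutamatergic neurons, had 10.0 and 5.15 CPM there and at most 1.83 CPM elsewhere, with log2 fold changes of -1.47 in batch 1 and 3.32 in batch 2. Syt6, listed as a marker of deep cortical layers, had 35.3 and 14.8 CPM there. Sp8 and Scgn were named by their small p and are in no list, and Eomes and Syt6 come from different lists. For all 4 genes the high values were in the same pair of excision libraries. The part of neighbouring tissue in them was not tested. Genes of thalamus and septum had 13 of 14 members above 0 and a median of 0.15, split as -0.28 in batch 1 and 0.57 in batch 2, and -0.02 without excision replicate 4 of batch 2.

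Among genes lower in excision, the estimates were mostly small. Asnsd1, an asparagine synthetase domain gene, ranked first, with 1.98 through 2.21 to 2.94 CPM in excision and 2.42 through 2.94 to 4.39 CPM in sham. The highest excision library reached the sham median, and the log2 fold change was -0.42 (SE 0.12, edgeR adjusted p = 0.852). Ikbke, a kinase of antiviral and NF-kB signalling, had 0.918 ± 0.233 CPM against 1.32 ± 0.221 CPM (-0.46). Myo1f, a myosin of leukocytes and microglia, had 2.69 ± 0.335 against 3.35 ± 0.336 CPM (-0.31), and all 5 batch 1 excision libraries (2.52 to 2.86 CPM) lay below all 4 sham libraries (3.52 to 3.77 CPM), as in 0.466% of all genes. Psme1, a proteasome activator induced by interferon, had 34.1 ± 4.03 against 40.3 ± 7.07 CPM (-0.24), and Mmp14, a membrane-bound matrix protease, 14.3 ± 1.59 against 16.9 ± 2.64 CPM (-0.23). The pseudogene Mid1-ps1, on the Y chromosome, had -0.83, but its reads can be shared with Mid1 and the value is uncertain. The Y-linked genes Ddx3y and Eif2s3y were at 0 in all 19 libraries, and Xist, made from the inactive X, was at 79.1 to 270 CPM in excision and 97.1 to 294 CPM in sham.

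Igkc, the constant region of the immunoglobulin kappa light chain, had an estimate of -2.84 (SE 0.81). It came from sham replicate 3 of batch 1 at 22.2 CPM, every other excision and sham library having at most 0.745 CPM, and the estimate was -0.58 without that library. The same library carried the blood genes: the granulocyte proteins S100a8, S100a9 and Ngp reached 34.6, 86.4 and 39.6 CPM of the plain total in the highest sham library and at most 0.184, 0.1103 and 0.0540 in excision. Erythroid genes had 0 of 7 members above 0 and a median of -0.44, and the median was 0.23 without that library. The haemoglobin genes Hba-a1 and Hba-a2 are near-identical, so the split of reads between them is uncertain.

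Medians of the astrocyte, reactive astrocyte, microglia, complement, interferon, antigen presentation and cytokine lists lay within 0.1 of 0, with single members further out. Those of neutrophil genes (3 tested) and lymphocyte genes (6 tested) were -0.11 and -0.37. Without sham replicate 3 of batch 1 they were 0.05 and -0.20. Gfap, the astrocyte filament that rises in injured brain, averaged 350 ± 65.0 CPM in excision and 343 ± 54.9 CPM in sham, a log2 fold change of 0.01 with a 95% interval of -0.17 to 0.20. Aif1, which encodes the microglial protein Iba1, averaged 5.45 ± 0.917 and 5.90 ± 1.29 CPM (-0.12, interval -0.38 to 0.14). The complement gene C4b averaged 53.8 ± 8.72 and 53.6 ± 6.90 CPM (0.01, interval -0.18 to 0.20). These intervals, taken over both batches, exclude a change of 1.5-fold in either direction. The microglia list had 4 of 16 members above 0 and a median of -0.06, astrocyte genes 9 of 15 and 0.02, and reactive astrocyte genes 8 of 13 and 0.02. Members of the reactive list ran from -0.36 to 0.74, and 9 of its 13 intervals excluded 1.5-fold. Its highest member, the chemokine Cxcl10, averaged 0.380 ± 0.305 CPM in excision and 0.245 ± 0.180 CPM in sham (0.74, SE 0.36), and in the microglia list Sall1, a factor of microglial identity, averaged 20.2 ± 8.55 and 16.5 ± 3.39 CPM (0.31, SE 0.15). Both were higher at an unadjusted p under 0.05. Sall1 reached 43.6 CPM in excision replicate 5 of batch 2, the library in which Sp8 was also highest. Complement genes had 5 of 16 above 0 and a median of -0.08, with Itgam, the complement receptor subunit of microglia, at -0.19 and an unadjusted p under 0.05. Interferon genes had 10 of 18 above 0 (median 0.01), antigen presentation genes 6 of 16 (-0.03), and cytokine and NF-kB genes 12 of 15 (0.04) with 0 at an unadjusted p under 0.05.

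Stress, clock and oxygen-sensing genes were described in the same way. Fkbp5, a glucocorticoid receptor co-chaperone induced by corticosterone, averaged 69.7 ± 8.30 CPM in excision and 67.7 ± 7.02 CPM in sham (0.04, interval -0.11 to 0.19). The glucocorticoid list had 13 of 18 members above 0 and a median of 0.06, with Zbtb16 (39.2 ± 6.01 against 30.4 ± 10.1 CPM, 0.37) and Klf9 (180 ± 24.9 against 160 ± 32.9 CPM, 0.19), both transcription factors, higher at an unadjusted p under 0.05. Of 17 clock genes, 15 were above 0 with a median of 0.09, and 9 were above 0 in both batches (27.8% of all genes tested). Dbp, a clock output factor, averaged 37.8 ± 8.41 against 31.5 ± 10.9 CPM (0.27), and the REV-ERB repressors Nr1d2 and Nr1d1 had 0.20 and 0.15, all 3 at an unadjusted p under 0.05. The Dbp groups overlapped in both batches. Hypoxia genes had 12 of 15 above 0 and a median of 0.04, with Epas1, the HIF-2 alpha subunit common in endothelium, at 0.18 and Egln3, a HIF prolyl hydroxylase, at 0.33. Unfolded protein response genes had 8 of 20 above 0 (median -0.03) and cytosolic heat shock genes 8 of 16 (-0.01).

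Neuronal and myelin lists lay near 0 or slightly above. Bdnf, the neurotrophin of activity-dependent plasticity, averaged 39.4 ± 4.31 CPM in excision and 38.9 ± 7.52 CPM in sham (0.03, interval -0.14 to 0.21). Dentate granule genes had 10 of 15 above 0 and a median of 0.10, CA1 genes 6 of 11 and 0.04, and CA2 and CA3 genes 2 of 13 and -0.08. Glutamate receptor genes had 14 of 20 above 0 (median 0.05), GABA receptor genes 11 of 14 (0.07) and interneuron genes 7 of 16 (-0.06). Myelin genes had 15 of 15 above 0 with a median of 0.12, but 0 reached an unadjusted p of 0.05. The median was 0.04 without sham replicate 3 of batch 1, the library of high blood transcripts, and 0.19 without sham replicate 5 of that batch. Mobp, a gene of the myelin list, averaged 442 ± 105 CPM in excision and 347 ± 90.1 CPM in sham (0.34, SE 0.18), and Mbp, which encodes myelin basic protein, 1455 ± 285 and 1247 ± 261 CPM (0.22, interval -0.09 to 0.52).

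Ribosomal protein genes, which build the translation machinery, had 28 of 28 members below 0 with a median of -0.08, and nuclear-encoded oxidative phosphorylation genes 25 of 28 below 0 with a median of -0.11. At an unadjusted p under 0.05 there were 0 ribosomal protein genes and 1 oxidative phosphorylation gene, the complex I subunit Ndufv1 (-0.14). Without sham replicate 3 of batch 2 the medians were -0.04 and -0.07. Transcript length moved with these estimates. Over protein-coding genes split by length into 5 groups of like size, the share above 0 was 24.9% in the shortest (204 to 2065 bases, median -0.07), 39.1% in the next, 51.4%, 62.2%, and 75.4% in the longest (5463 to 123179 bases, median 0.06). The median transcript length was 1039.5 bases for the ribosomal list and 1376.5 for the oxidative phosphorylation list, against 3479 for endothelial genes. It was 5493.5 for glutamate receptor, 4729.5 for GABA receptor, 4520 for dentate granule and 4236 for clock genes, lists with most members above 0. The pericyte and smooth muscle list (4347) and the oligodendrocyte precursor list (4113) were also long but had medians just below 0. With a library index of long against short genes in the fit, an alternative added after seeing the data, 26 of 28 ribosomal genes were above 0 with a median of 0.03. The oxidative phosphorylation median was then -0.02. That index was taken from the counts of the same libraries, so estimates of short genes move with it partly by construction. The part of length in these estimates was not tested. The 13 genes encoded in mitochondrial DNA were all above 0, with a median of 0.11, split as 0.01 in batch 1 and 0.19 in batch 2, and 0 reached an unadjusted p of 0.05.

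**Figure D5:**
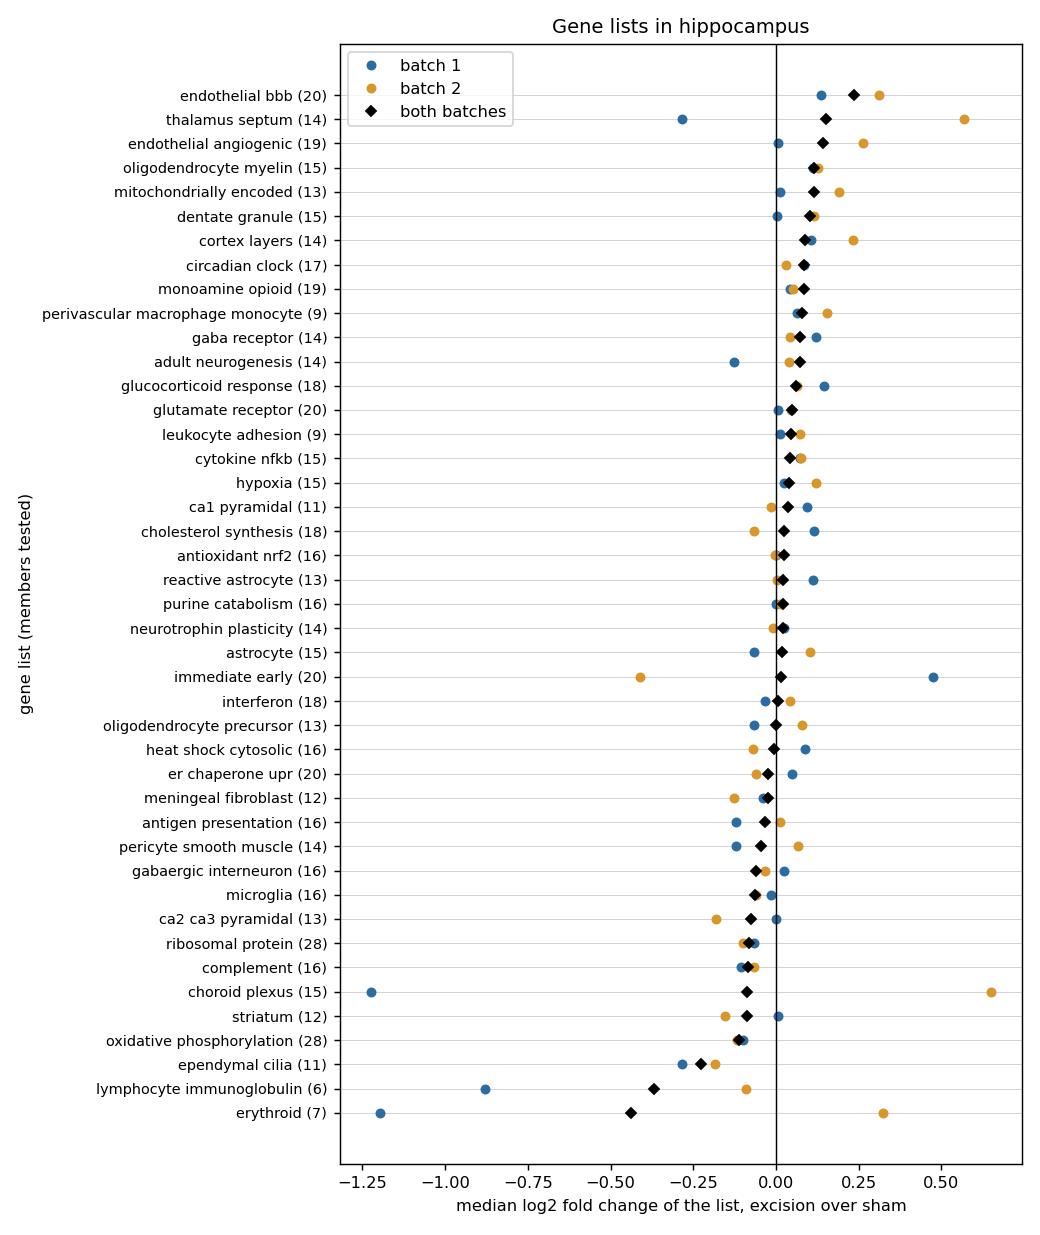
Median log2 fold change of excision against sham (x axis) of each gene list with at least 5 members tested (y axis), over both batches and in each batch. The immediate early median lies at 0.48 in batch 1 and -0.41 in batch 2. The endothelial and barrier median lies above 0 in both (0.14 and 0.31), and the ependymal median below 0 in both (-0.28 and -0.19). Most other medians over both batches lie within 0.1 of 0.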

How the data were processed

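Bulk RNA sequencing of mouse hippocampus gave the deposited counts per gene made by the authors, 55416 Ensembl identifiers in 71 libraries, all whole numbers. Per the submitters' processing notes, the tools were STAR, fastp, FastQC 0.11.3 and DESeq2 1.24.0, on GRCm38. Not given in the sources used here are the counting program, annotation release and strand setting, so genes overlapping on opposite strands may share reads. Symbols and positions came from GENCODE M21, which matched 52135 identifiers; the 3281 others held 0.809% of all counts, and 0 lines named no gene. Libraries were grouped by the treatment field. No 2 libraries of a group were identical (36 pairs).

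Counts of the 29 hippocampus libraries were fitted with edgeR 4.0.16 in R 4.3.3 (TMM, filterByExpr on treatment, quasi-likelihood F test, treatment plus batch), with Benjamini-Hochberg adjustment over all genes and calls at an adjusted p under 0.05. The burn libraries thus add to the estimate of spread. Interactions of excision with batch and with region used the same test, the latter over hippocampus and frontal cortex libraries. Library measures used exact permutation within batches (31752 relabellings). Intervals are 95%. The pipeline was tested on simulated data. Total counts of 6.65 to 70.8 M (mega) per library set the precision of low genes.

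Named genes were the 12 of smallest p in each direction that had an assigned symbol, kept their sign across batches and reached a mean of 1 CPM, up to 3 members per list by smallest p, and 13 genes read in every case. Members named beyond these were chosen after their values were seen. The members and the 45 gene lists were chosen with earlier results of these data known. Lists are described by counts and medians, with no test of the list. Alternatives were DESeq2 1.42.0 size factors and Wald test, no count filter, 2 surrogate variables (sva 3.50.0), a replicate block, no batch term, each batch alone, excision and sham libraries only, no libraries under 10 M counts, the TEC share as covariate, and each library left out. Promoter windows of 250 bases came from RefSeq.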

Additional observations from a re-analysis of the deposited data

Results flagged for a closer look

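For 41 genes and 5 library measures, each of the 4 groups of 4 or 5 libraries was examined for a library far from the others of its group. This was met in 16 of 184 groups, where chance gives about 1 in 20. Sp8 was 16.5 CPM in excision batch 2 replicate 5, against 0.764 to 5.15 in the other libraries of that group. Clic5, a chloride channel family member, was 3.83 CPM in excision batch 2 replicate 3 (others 2.63 to 2.88), and Fam181a was 1.62 CPM in the same library (others 0.697 to 0.939). Igkc was 22.2 CPM in sham batch 1 replicate 3 (others 0.0488 to 0.269), and haemoglobin genes took 0.261% of that library (others 0.0111 to 0.0400%). Mmp14 was 18.2 CPM in sham batch 1 replicate 5 (others 13.6 to 14.3). Psme1 was 44.9 CPM (others 31.3 to 34.6) and Mbp 1818 CPM (others 1415 to 1512) in excision batch 1 replicate 2. C4b was lowest, at 39.9 CPM, in sham batch 2 replicate 5 (others 52.1 to 55.8). Egr2 was 4.19 CPM in sham batch 1 replicate 4 (others 1.76 to 2.05).

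Choroid plexus transcripts set 3 libraries apart by Ttr: 2926 CPM in excision batch 1 replicate 5 (others 13.7 to 41.0), 4988 CPM in sham batch 1 replicate 5 (others 30.8 to 234) and 2927 CPM in sham batch 2 replicate 4 (others 23.3 to 827). The choroid plexus list took 0.432% of counts in the first of these (others 0.0169 to 0.0194%) and 0.731% in the second (others 0.0169 to 0.0488%). The total count of excision batch 2 replicate 1 was 70.8 M (mega; others 37.0 to 42.0).

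The difference between excision and sham differed between batches for 7 genes, by the edgeR interaction test with adjusted p of 0.000528 for Egr4, 0.00539 for Junb, 0.00539 for Dusp6, 0.0160 for Ccdc117, 0.0193 for Fosb, 0.0193 for Egr2 and 0.0246 for Gadd45b. The cause was not tested.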

How the results depend on the processing

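The excision comparison called 0 genes in each of the 19 fits without 1 library, with 344 (without sham batch 2 replicate 3) to 1627 (without sham batch 2 replicate 5) at an unadjusted p under 0.05. It called 2 genes with no count filter (Ngp and Camp, adjusted p = 0.0422, highest in sham batch 1 replicate 3) and 1 in batch 2 alone (Egr4). Same-numbered libraries did not pair: 9 pairs had correlations of -0.032 to 0.496, 6 over 0.1, and 3 correlated best with their own number. The replicate block called 0 genes, with 498 at an unadjusted p under 0.05 and a C4b value of -0.0082. The length index, added after seeing the data, gave 495. The batch interaction called 3 (without sham batch 1 replicate 2) to 10 (without sham batch 2 replicate 3) genes with 1 library left out, 4 without sham batch 1 replicate 5 or excision batch 2 replicate 4, 20 with DESeq2 and 9 with no count filter; the cause was not tested.

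No named gene passed the threshold in the excision comparison, and 13 of 407 values under other settings changed sign. In batch 2 alone, Gfap was -0.0566, Bdnf -0.0510, Ttr 0.43 and Hbb-bs 0.32, and in batch 1 alone C4b was -0.0051, Fkbp5 -0.0226 and Fos 0.77. With 2 surrogate variables Aif1 was 0.0247 and Bdnf -0.0287, and with the length index 0.0301 and -0.0328. Ttr was 0.0128 without libraries under 10 M counts. Leaving out 1 library gave -0.0375 to 0.0526 for Gfap, -0.0362 to 0.0513 for C4b, -0.0082 to 0.0746 for Bdnf, -1.20 to 0.87 for Ttr and -0.60 to 0.23 for Hbb-bs. Of the library measures, in batch 1 alone the excision minus sham difference was -0.440 M for total count and -0.0394 percentage points for mitochondrial share. In batch 2 alone it was 0.00591 for haemoglobin, 0.00247 for TEC models and 0.0518 for choroid plexus, the last being 0.0193 without libraries under 10 M counts. Leaving out 1 library gave -0.0374 to 0.00421 for haemoglobin and -0.0682 to 0.0606 for choroid plexus. Of 528 list medians under other settings, 7 moved by more than their spread; the endothelial and barrier median ran from 0.13 in batch 1 alone to 0.30 in batch 2 alone, was 0.28 with the replicate block and 0.36 without sham batch 1 replicate 4. Depth limits low genes: libraries of batch 1 reached as few as 6.65 M (mega) counts, and 95.9% of gene intervals lay within 2-fold.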
